A study of Mus musculus with 9 samples.

Results

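The cells described here were IgM plasma cells of the mouse spleen, the antibody-secreting B-lineage cells that make IgM as their main heavy chain. A cell was taken as an IgM plasma cell when it had at least 5 unique molecular identifiers (UMIs, counted RNA molecules) of Xbp1 and at least 20 of Jchain, and when Ighm had more UMIs than each of Igha, Ighg1, Ighg2b, Ighg2c and Ighg3. It also needed at least 200 genes, at most 10% mitochondrial UMIs and 1 dominant hashtag, with at least 20 UMIs and at least 3 times the next one. Of 45217 cells with 1 dominant hashtag, 579 met the rule. The members were thus chosen by their UMIs of Xbp1, Jchain and the heavy-chain genes, and the levels of these genes are given as a description. The same Xbp1 and Jchain limits with a switched heavy chain on top gave 349 class-switched plasma cells. For comparison, 6047 follicular B cells were taken with at least 2 UMIs of Ms4a1, 2 of Ighd and 1 of Fcer2a, outside the Xbp1 and Jchain limits.

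Splenocytes of mice homozygous for the R594C change in IRE1 (R594C/R594C, 2 hashtagged replicates), heterozygous mice (R594C/+, 4 replicates) and wild-type mice (WT, 4 replicates) were sorted with DAPI and read by CITE-seq, which counts RNA and barcoded surface antibodies in the same cell. The study asked whether the R594C change alters the immune cells of the spleen. Each genotype was a single droplet capture with its own antibody tag library, so genotype, capture and any difference in staining cannot be told apart. The sample labels do not say how the staining was divided. The labels do not say whether the hashtags within a capture mark separate animals, and p-values measure the spread between hashtagged replicates. No age and no breeding scheme are given in the sources used here.

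IRE1, encoded by Ern1, is a sensor of the endoplasmic reticulum (ER) whose ribonuclease removes a short intron from Xbp1 mRNA, and the spliced Xbp1 mRNA encodes a transcription factor of secretory genes. The same ribonuclease also cuts some other ER-bound mRNAs, a process called regulated IRE1-dependent decay. Plasma cells carry large amounts of ER and depend on XBP1 for high antibody output, and IgM is assembled with the joining chain, encoded by Jchain, into polymers. Known XBP1 targets lie in several steps of the secretory route, from entry into the ER through folding, glycan trimming and degradation to vesicle transport towards the Golgi.

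The replicate of each cell was read from an antibody-borne oligonucleotide, and the surface proteins that set the IgM class apart below were read the same way. Their barcodes, as deposited, were the following, with all letters read.
Hashtag 1: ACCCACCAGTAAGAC
Hashtag 2: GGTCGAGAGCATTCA
Hashtag 3: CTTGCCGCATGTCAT
Hashtag 4: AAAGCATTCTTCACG
IgM: AGCTACGCATTCAAT
CD200: TCAATTCCGGTAGTC
CD183: GTTCACGCCGTGTTA
CD326: ACCCGCGTTAGTATG
CD138: GCGTTTGTATGTACT

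The genes that were lower in R594C/R594C cells (Edem2, Fkbp11, Arfgap3, Tmed3 and Isg20) are shown by the 250 bases before an annotated transcript start, beside Hspa5, an ER stress gene that did not pass the test. The sequences are those of RefSeq on build GRCm38.p6, written 5′ to 3′ on the gene's strand, and capitals mark CCACG or its complement CGTGG, the core shared by the ER stress response elements. Fkbp11 has 2 entries, and of the 3 entries of Isg20 the one that holds a motif is shown. The windows of Arfgap3 and Isg20 and the upper one of Fkbp11 lie partly or wholly inside the gene bounds given below, which take in transcripts that start farther upstream.
Edem2, chr2:155729476-155729725, minus strand: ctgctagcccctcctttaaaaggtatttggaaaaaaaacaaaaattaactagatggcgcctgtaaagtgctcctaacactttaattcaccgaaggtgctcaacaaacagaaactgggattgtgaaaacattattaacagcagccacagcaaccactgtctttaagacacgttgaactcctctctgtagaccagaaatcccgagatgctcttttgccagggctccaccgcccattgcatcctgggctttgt
Fkbp11, chr15:98727628-98727877, minus strand: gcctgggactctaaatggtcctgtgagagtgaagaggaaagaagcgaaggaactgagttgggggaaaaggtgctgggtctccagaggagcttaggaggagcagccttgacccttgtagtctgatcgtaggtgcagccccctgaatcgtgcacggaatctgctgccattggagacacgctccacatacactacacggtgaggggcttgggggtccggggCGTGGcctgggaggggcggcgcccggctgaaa
Fkbp11, chr15:98728199-98728448, minus strand: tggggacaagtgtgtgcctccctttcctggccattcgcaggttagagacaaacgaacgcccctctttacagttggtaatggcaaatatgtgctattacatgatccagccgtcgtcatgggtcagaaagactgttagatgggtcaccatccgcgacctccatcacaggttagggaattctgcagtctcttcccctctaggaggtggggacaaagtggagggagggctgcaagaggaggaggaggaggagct
Arfgap3, chr15:83350248-83350497, minus strand: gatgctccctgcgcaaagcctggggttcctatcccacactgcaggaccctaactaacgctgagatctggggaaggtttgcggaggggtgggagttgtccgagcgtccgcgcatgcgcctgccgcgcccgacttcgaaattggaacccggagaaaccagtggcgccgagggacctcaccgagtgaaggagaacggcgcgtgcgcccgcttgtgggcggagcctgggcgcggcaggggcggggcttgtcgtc
Tmed3, chr9:89705044-89705293, minus strand: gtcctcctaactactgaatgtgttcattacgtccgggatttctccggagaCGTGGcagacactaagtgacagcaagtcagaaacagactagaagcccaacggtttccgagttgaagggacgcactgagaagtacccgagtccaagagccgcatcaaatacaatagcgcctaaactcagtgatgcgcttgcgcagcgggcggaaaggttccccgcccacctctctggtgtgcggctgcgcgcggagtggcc
Isg20, chr7:78913515-78913764, plus strand: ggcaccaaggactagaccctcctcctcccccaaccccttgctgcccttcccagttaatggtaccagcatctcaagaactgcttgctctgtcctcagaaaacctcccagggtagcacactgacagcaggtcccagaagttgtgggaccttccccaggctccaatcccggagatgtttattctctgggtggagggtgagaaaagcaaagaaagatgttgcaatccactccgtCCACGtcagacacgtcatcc
Hspa5, chr2:34771840-34772089, plus strand: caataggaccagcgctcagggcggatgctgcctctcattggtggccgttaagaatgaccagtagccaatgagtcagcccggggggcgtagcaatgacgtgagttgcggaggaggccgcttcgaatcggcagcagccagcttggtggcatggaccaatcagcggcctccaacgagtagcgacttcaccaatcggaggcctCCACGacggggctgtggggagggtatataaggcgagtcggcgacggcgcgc

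Each window was searched on both strands for CCACG, for TGACGTGG (the core of the unfolded protein response element, which contains CCACG on its other strand) and for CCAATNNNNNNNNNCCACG (the ER stress response element, which also contains CCACG). Among all 32851 promoter entries of the same length, 28.3% held CCACG, 0.563% held TGACGTGG and 0.113% held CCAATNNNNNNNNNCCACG. The Tmed3 window and the upper Fkbp11 window held CCACG once, the Isg20 window shown held TGACGTGG, the Hspa5 window held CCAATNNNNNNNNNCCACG, and the windows of Edem2 and Arfgap3 held none of the motifs. Counted by gene over all entries, CCACG lay in 20 of 24 ER chaperone genes with an entry, 14 of 26 translocation and glycosylation genes, 12 of 19 degradation genes and 20 of 30 ER-to-Golgi genes, against 31.0% of 27025 genes. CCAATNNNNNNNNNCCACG lay in 8 of the 24 chaperone genes, in none of the 26 translocation and glycosylation genes and in 0.130% of all genes. CCACG also lay in 16 of 26 ATF4 and CHOP targets, a list that was split between higher and lower in R594C/R594C cells. All of these are matches of letters and not measured binding.

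The 3 captures held between 74538447 and 87953814 RNA UMIs. The median IgM plasma cell had 18940.5 RNA UMIs in the R594C/R594C capture, 19283 in R594C/+ and 20310.5 in WT, and the summed counts per replicate lay between 742021 and 1939533 UMIs. Captures shared 236 barcodes over the 3 pairs, none of them an IgM plasma cell. A further 32 R594C/R594C, 60 R594C/+ and 25 WT cells met the RNA rule without 1 dominant hashtag and were left out. Xist, the RNA of the inactive X chromosome, was above 100 CPM (counts scaled to library size) in R594C/R594C replicate 2, in all 4 R594C/+ replicates and in WT replicate 2 alone, so libraries of both kinds stood in the R594C/R594C and WT groups and a single kind in R594C/+.

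The markers other than Irf4 fitted the label. In plain CPM of summed counts, Jchain averaged 36992 in IgM plasma cells against 1122 in all other cells, Xbp1 1080 in IgM plasma cells against 129 in the others, and Prdm1, the factor that drives plasma cell formation, 96.9 in IgM plasma cells against 16.4 in the others (n = 10 replicates). Ighm averaged 143009 CPM in IgM plasma cells, against 720 CPM in class-switched plasma cells and 2614 CPM in follicular B cells. Of further plasma cell markers that the rule did not use, Sdc1, Tnfrsf17, Derl3 and Mzb1 went the same way and Irf4 did not. Sdc1, which encodes CD138, averaged 132 CPM in IgM plasma cells against 11.3 CPM in the other cells. Tnfrsf17, which encodes the survival receptor BCMA, averaged 143 CPM in IgM plasma cells against 3.19 CPM in the others. Derl3 averaged 250 CPM in IgM plasma cells against 14.5 CPM in the others. Mzb1 was low in both, with 8.56 CPM in IgM plasma cells against 2.09 CPM. Irf4 averaged 140 CPM in IgM plasma cells, 142 CPM in the other cells and 215 CPM in follicular B cells. The B cell gene Ms4a1 was low, with 79.6 CPM in IgM plasma cells against 1135 CPM in follicular B cells. In every replicate the median ratio of Ighm UMIs to UMIs of the next heavy chain was at least 1555. A next chain without UMIs entered this ratio as a single UMI.

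Few cells lay near the limits. The rule took in 31 cells with 5 or 6 Xbp1 UMIs, with a median depth of 13567 UMIs, and 19 cells with 20 to 40 Jchain UMIs. Just outside lay 26 cells with 3 or 4 Xbp1 UMIs, with a median depth of 7620 UMIs, and 13 cells with 10 to 19 Jchain UMIs.

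The genes most like the rule's markers, ranked by the log2 ratio of pooled CPM in IgM plasma cells over all other cells among genes with at least 50 CPM, were Tnfrsf17 with 5.13, Derl3 with 4.10, Txndc5 with 4.07, Prg2 with 4.07, Chst1 with 3.94, Fkbp11 with 3.91, Oosp1 with 3.60, Cacna1s with 3.54, Sdc1 with 3.46 and Eaf2 with 3.45. Derl3 and Txndc5 act in ER degradation and disulfide formation, and Cacna1s encodes a calcium channel subunit. Class-switched plasma cells, counted among the other cells, had more pooled CPM of Prg2 (499 against 377 in IgM plasma cells) and Oosp1 (173 against 149). They also had more of Sdc1 (155 against 134) and Eaf2 (286 against 280). They had less of Tnfrsf17 (67.5 against 145), Txndc5 (636 against 1241), Cacna1s (124 against 197) and Derl3 (211 against 251). Chst1 (106 against 109) and Fkbp11 (151 against 153) were close. This ranking follows from the choice of the cells and has no test.

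IgM plasma cells made up 1.05% and 0.528% of hashtagged cells in the 2 R594C/R594C replicates, 1.64%, 2.94%, 1.41% and 1.55% in the 4 R594C/+ replicates, and 1.99%, 0.887%, 1.01% and 1.24% in the 4 WT replicates. The R594C/R594C and WT values overlapped, both R594C/R594C values lay below all R594C/+ values, and R594C/+ replicate 2 stood above all others. Against the number of R594C copies the share gave r = -0.147 (p = 0.698) and rho = -0.0778 (p = 0.839) over 10 replicates, by two-sided exact permutation over 3150 assignments, with Benjamini-Hochberg values of 0.813 and 0.839 over the 2 shares tested. Without both R594C/R594C replicates, which lie farthest in copy number, r was 0.493, and without R594C/R594C replicate 2 alone it was 0.136, so its sign rests on single replicates. Between pairs of genotypes the exact two-sided permutation tests gave p = 0.4 for R594C/R594C minus WT (-0.495 percentage points), p = 0.229 for R594C/+ minus WT (0.601) and p = 0.133 for R594C/R594C minus R594C/+ (-1.10), where 2 against 4 replicates cannot go below 0.0667 and 4 against 4 cannot go below 0.0286. In bulk and in summed counts, fewer cells of a type and less RNA per cell cannot be told apart; here the cells were counted one by one, and the fraction recovered from each spleen is not known.

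**Figure D1:**
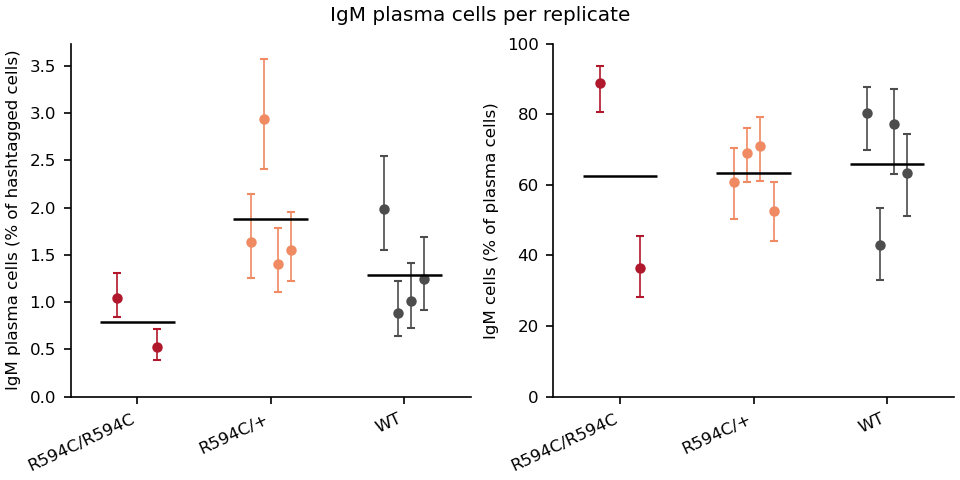
Share of IgM plasma cells among hashtagged cells (left, %) and among all plasma cells (right, %), with 1 point per replicate, Wilson 95% intervals for counting error and a line at the genotype mean. R594C/R594C and WT overlap in both panels, while on the left both R594C/R594C values lie below all R594C/+ values, with 0.528% to 1.05% of hashtagged cells in R594C/R594C, 1.41% to 2.94% in R594C/+ and 0.887% to 1.99% in WT.

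Among plasma cells of all classes, IgM cells were 88.8% and 36.4% in R594C/R594C, 60.9%, 69.1%, 71.0% and 52.6% in R594C/+, and 80.3%, 43.0%, 77.3% and 63.5% in WT. The R594C/R594C replicates were the highest and the lowest of all 10, and the share gave r = -0.0875 with copy number (exact permutation p = 0.813; rho = -0.104, p = 0.783). It turned to 0.335 without R594C/R594C replicate 2, to 0.0380 without WT replicate 1 and to 0.0120 without WT replicate 3. The class-switched cells of R594C/R594C replicate 2 were mostly Ighg3 (45 of 75 cells) and Igha (21 of 75 cells).

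The receptor genes differed between replicates of the same genotype. A variable segment was called in a cell when it had at least 5 UMIs and at least 3 times the next segment, which gave a heavy segment in 430 of the 579 cells and a light segment in 417. The most used heavy segment was Ighv6-3 in R594C/R594C replicate 1 (15 cells, 23.8% of those called) and Ighv1-75 in R594C/R594C replicate 2 (10 cells, 30.3%). In R594C/+ it was Ighv1-53, Ighv1-55, Ighv6-3 and Ighv1-53 over replicates 1 to 4, and in WT it was Ighv1-53 in 3 of the 4 replicates, with 33.3% of called cells in WT replicate 2. Among light segments, Igkv5-39 was in 21 of 33 called cells of R594C/R594C replicate 2 (63.6%) and in 19 of 43 of R594C/+ replicate 1 (44.2%), while Igkv3-4 led in all 4 WT replicates with 19.2% to 42.9% of called cells. Igkv3-4 also led in R594C/+ replicate 3 (25.6%) and R594C/+ replicate 4 (26.1%). Igkv5-39 led in R594C/+ replicate 2 (25%), and Iglv1 in R594C/R594C replicate 1 (20.4%). The segments belong to families of near-identical copies whose reads the counting could have split.

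Immunoglobulin genes took 47.6% and 54.6% of the RNA UMIs in R594C/R594C IgM plasma cells, 54.8% to 59.4% in R594C/+ and 52.9% to 59.0% in WT. R594C/R594C replicate 1 lay below every other replicate and R594C/R594C replicate 2 lay within the WT range. UMIs of Iglc1, Iglc2 and Iglc3 together exceeded those of Igkc in 15 of the 579 cells. In R594C/R594C replicate 1 this held for 4 cells, whereas the lambda segment Iglv1 was called in 11. The 2 readouts of lambda use thus differ, and the cause was not tested. Cells with at least 3 UMIs of the cycling markers were 15.2% and 6.98% in R594C/R594C, 6.06% to 11.3% in R594C/+ and 5% to 24.3% in WT (mean ± SD 11.1% ± 5.81 in R594C/R594C, 8.47% ± 2.35 in R594C/+ and 13.8% ± 8.84 in WT, with n = 2, 4 and 4). In the shallower follicular B cells, with 3340.5 to 3430 UMIs in the median cell, the same limit was met by 1.04% to 2.54%.

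The genes of the rule and of the sensor itself are given as TMM-scaled CPM (CPM after edgeR's library scaling). Ern1 had 25.4 and 35.5 in the R594C/R594C replicates, 27.4, 24.9, 28.03 and 21.7 in R594C/+, and 36.1, 17.0, 21.6 and 8.76 in WT. The groups overlapped, and the R594C/R594C minus WT log2 fold change of 0.45 ± 0.34 (SE) did not pass (edgeR quasi-likelihood test, Benjamini-Hochberg adjusted p = 0.89). R594C is a change of a single codon, so the 3′ counts of Ern1 do not check the genotype. Xbp1 had 1055 and 1272 CPM in R594C/R594C, 1073 to 1208 in R594C/+ and 879 to 1085 in WT. Jchain had 32347 and 44844 CPM in R594C/R594C, 34243 to 42080 in R594C/+ and 27346 to 43744 in WT. Ighm had 107500 and 156927 CPM in R594C/R594C, 126193 to 168137 in R594C/+ and 123150 to 162736 in WT. These genes chose the cells and are not tested, and for each of the 3, 1 of the 2 R594C/R594C values lay within the WT range. The counts do not separate spliced from unspliced Xbp1 mRNA. Prdm1 had 114 and 97.7 CPM in R594C/R594C, 76.4 to 98.3 in R594C/+ and 70.1 to 148 in WT, with a log2 fold change of 0.13 ± 0.24 between R594C/R594C and WT (adjusted p = 0.97).

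Between R594C/R594C and WT IgM plasma cells, 9 of 6866 tested genes passed an adjusted p of 0.05 (0.131%). The 5 that fell (0.0728%) were Edem2, Fkbp11, Arfgap3 and Tmed3, with log2 fold changes between -1.32 and -0.97, and the interferon-induced nuclease Isg20. Edem2 and Fkbp11 are members of the lists of secretory genes used below, and Arfgap3 and Tmed3, which act in vesicle transport, are in none of them. The 4 that rose (0.0583%) were Sfn, Malt1, the globin gene Hbb-bs and the kappa variable segment Igkv6-32. The comparison rests on 2 R594C/R594C replicates, and 453 genes (6.6%) had an unadjusted p under 0.05.

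Edem2, which recognises misfolded glycoproteins for ER-associated degradation (chr2:155701673-155729475), had 124 and 115 CPM in R594C/R594C, 228, 244, 235 and 217 in R594C/+, and 195, 258, 281 and 220 in WT. Both R594C/R594C values lay below all 8 others. The log2 fold change against WT was -0.98 ± 0.16 (SE; adjusted p = 0.0038). Fkbp11, a prolyl isomerase of the ER that is abundant in secretory cells (chr15:98724368-98728198), had 82.3 and 58.3 CPM in R594C/R594C, 196, 175, 137 and 200 in R594C/+, and 148, 186, 232 and 159 in WT. Its R594C/R594C values were again the lowest of all, with a log2 fold change of -1.32 ± 0.21 against WT (adjusted p = 0.0046).

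Arfgap3 and Tmed3 were placed in vesicle transport after they had passed. Arfgap3, a GTPase-activating protein of COPI vesicles (chr15:83299739-83350375), had 19.8 and 20.3 CPM in R594C/R594C, 37.6 to 46.4 in R594C/+ and 41.7 to 52.6 in WT, a log2 fold change of -1.17 ± 0.23 against WT (adjusted p = 0.031). Tmed3, a p24 cargo receptor (chr9:89699203-89705043), had 46.2 and 60.9 CPM in R594C/R594C, 83.6 to 92.9 in R594C/+ and 72.5 to 122 in WT, a log2 fold change of -0.97 ± 0.19 (adjusted p = 0.031). Neither gene's R594C/R594C values reached those of the other genotypes. Isg20 (chr7:78913396-78920396) had 81.3 and 104 CPM in R594C/R594C, 127 to 173 in R594C/+ and 154 to 193 in WT, a log2 fold change of -0.86 ± 0.17 (adjusted p = 0.031).

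Sfn, which encodes 14-3-3 sigma, a checkpoint protein (chr4:133600556-133602168), had 66.0 and 60.9 CPM in R594C/R594C, 39.7, 24.9, 24.5 and 27.1 in R594C/+, and 22.1, 19.3, 28.8 and 22.5 in WT. The log2 fold change against WT was 1.47 ± 0.23 (adjusted p = 0.0038). Malt1, a scaffold and protease of antigen receptor signalling (chr18:65430939-65478888), had 89.9 and 83.7 CPM in R594C/R594C, 43.5, 64.9, 47.3 and 68.1 in R594C/+, and 38.5, 48.7, 37.4 and 31.3 in WT, with a log2 fold change of 1.15 ± 0.20 (adjusted p = 0.0097). The R594C/+ values of Malt1 lay between the other genotypes and overlapped with WT.

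The other genes that rose were a receptor segment and a globin gene. Igkv6-32 (chr6:70074024-70074584) had 59 UMIs in R594C/R594C, 1 in R594C/+ and 0 in WT; the R594C/R594C level was at least 29.3-fold higher than the level of 3 UMIs over the WT group. The UMIs lay in 2 cells of R594C/R594C replicate 1, with up to 27 in a cell, and in 6 cells of R594C/R594C replicate 2, with up to 4 in a cell. The segment belongs to a family of near-identical copies. Hbb-bs, a beta globin chain with a near-identical copy in Hbb-bt, had 20.3 CPM in both R594C/R594C replicates, 17.5 to 27.1 in R594C/+ and 2.88 to 7.93 in WT (log2 fold change 1.72 ± 0.34 for R594C/R594C minus WT, adjusted p = 0.031). The summed plain CPM of 5 erythroid markers was 41.0 to 42.3 in R594C/R594C IgM plasma cells, 34.4 to 66.5 in R594C/+ and 6.74 to 17.8 in WT, and in the other cells of the same replicates it was 1143 to 1328 in R594C/R594C, 714 to 2649 in R594C/+ and 271 to 745 in WT. Alas2 was at 0 in WT IgM plasma cells, and the part of free erythroid RNA in this result was not tested.

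**Figure D2:**
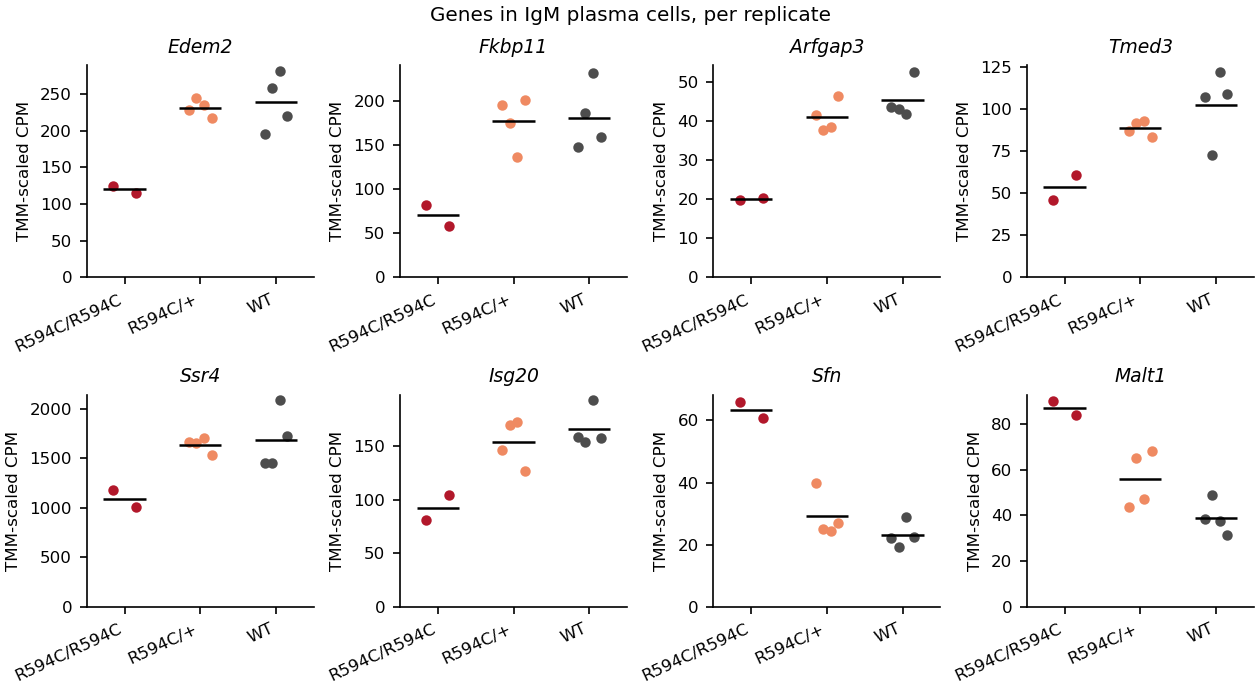
TMM-scaled CPM of 8 genes in IgM plasma cells, with 1 point per replicate and a line at the genotype mean. Edem2, Fkbp11, Arfgap3, Tmed3 and Isg20 are lower, and Sfn and Malt1 higher, in both R594C/R594C replicates than in every WT replicate; Ssr4, also lower in both, has an adjusted p of 0.065.

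The count of 9 depended on the libraries. It was 2 without R594C/R594C replicate 1 and 3 without R594C/R594C replicate 2, 4 without WT replicate 4 and 15 without WT replicate 2, and 5 without R594C/+ replicate 1, 2 or 3, which enter through the shared spread. Fkbp11 passed without R594C/R594C replicate 1 and Igkv6-32 and Sfn passed without R594C/R594C replicate 2, while all 9 passed without WT replicate 2. With Xist as a covariate 7 genes passed, 5 of the 9 among them, and the adjusted p was 0.093 for Tmed3, 0.055 for Isg20 and 0.051 for Arfgap3 and Hbb-bs. After removal of cells with UMIs of other cell types, 355 IgM plasma cells were left, 4318 genes could be tested and none passed, with log2 fold changes of -0.91 for Edem2 (adjusted p = 0.163) and -1.08 for Fkbp11 (adjusted p = 0.163).

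Across the secretory route the direction was shared by more genes than passed one by one. Of the 34 tested genes of ER translocation, signal peptidase and N-glycosylation, 32 had a log2 fold change below 0 between R594C/R594C and WT, with a median of -0.31, where 49.3% of all genes were below 0 and the median of all genes was 0.01. An unadjusted p under 0.05 with a lower value was reached by 16 of the 34, against 3.73% of all genes, and none of the 34 passed the adjusted threshold. The lists were written with earlier results of these data known.

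Among these genes, Ssr4, a subunit of the translocon-associated protein complex, came nearest to the threshold, with 1175 and 1006 CPM in R594C/R594C, 1528 to 1702 in R594C/+ and 1449 to 2089 in WT (log2 fold change -0.62 ± 0.13 against WT, adjusted p = 0.065). Ssr4 lies on the X chromosome. Tram1, which helps chains into the translocon, had 119 and 115 CPM in R594C/R594C against 159 to 216 in WT (-0.63 ± 0.16, adjusted p = 0.17). The signal peptidase subunits Spcs2, Spcs3 and Sec11c had log2 fold changes of -0.31, -0.52 and -0.32, the oligosaccharyltransferase subunits Dad1, Krtcap2, Rpn1 and Ddost -0.47, -0.41, -0.45 and -0.47, and the translocon subunit Sec61b -0.31, with adjusted p between 0.48 and 0.67. For Tram1, Spcs3, Dad1, Krtcap2 and Rpn1, named after their values were seen, the R594C/R594C values lay below all WT values. The share of all tested genes that separate in this way is not given here, so nothing is concluded from the separation.

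Of 28 tested ER chaperones and disulfide isomerases, 23 were below 0, with a median of -0.21, and 8 of them had an unadjusted p under 0.05; Fkbp11 alone passed the adjusted threshold. Fkbp2, another ER prolyl isomerase, had 291 and 316 CPM in R594C/R594C against 356 to 485 in WT (-0.49 ± 0.13, adjusted p = 0.25), and Dnajc3, a co-chaperone of BiP, had 271 and 249 CPM in R594C/R594C against 323 to 416 in WT (-0.52 ± 0.14, adjusted p = 0.31). Erp44, which retains unassembled IgM subunits in the early secretory pathway, had a log2 fold change of -0.56 ± 0.17 (adjusted p = 0.54), and Manf, a BiP cofactor, -0.38 ± 0.13 (adjusted p = 0.64). The most abundant members were split in sign. Hspa5, which encodes BiP, had 1496 and 1174 CPM in R594C/R594C against 972 to 1326 in WT (0.22 ± 0.14, adjusted p = 0.82), and Hsp90b1, which encodes GRP94, had 2870 and 2519 CPM in R594C/R594C against 1974 to 2648 in WT (0.25 ± 0.19, adjusted p = 0.88), whereas Txndc5 had 1091 and 1053 CPM in R594C/R594C against 909 to 1679 in WT (-0.22 ± 0.18, adjusted p = 0.89) and Calr, which encodes calreticulin, had 661 and 643 CPM in R594C/R594C against 670 to 843 in WT (-0.21 ± 0.13, adjusted p = 0.82). Creld2 had 0.29 ± 0.16 (adjusted p = 0.80). With stricter Xbp1 and Jchain limits Hspa5 and Creld2 turned to -0.042 and -0.18.

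In ER-associated degradation 15 of 21 tested genes were below 0, with a median of -0.22. Beside Edem2, Selenos had 230 and 232 CPM in R594C/R594C against 287 to 339 in WT (-0.44 ± 0.13, adjusted p = 0.51), Ubxn4 had 136 and 138 in R594C/R594C against 174 to 219 in WT (-0.54 ± 0.16, adjusted p = 0.48) and Man1b1, a mannosidase that marks glycoproteins for degradation, 41.1 and 24.1 in R594C/R594C against 45.1 to 60.4 in WT (-0.69 ± 0.22, adjusted p = 0.58). Derl1 and Herpud1 had -0.42 and -0.29, whereas Derl3 had 0.05 ± 0.14 (adjusted p = 0.99), which turned to -0.23 with the stricter limits, and Sel1l stood at 0.01. In ER-to-Golgi transport 26 of 35 tested genes were below 0, with a median of -0.13, and none passed the adjusted threshold. The cargo receptor pair Lman1 and Mcfd2 had 174 and 115 CPM in R594C/R594C against 204 to 281 in WT (-0.69 ± 0.17, adjusted p = 0.19) and 7.62 and 10.1 CPM in R594C/R594C against 15.9 to 24.6 in WT (-1.27 ± 0.32, adjusted p = 0.18).

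**Figure D3:**
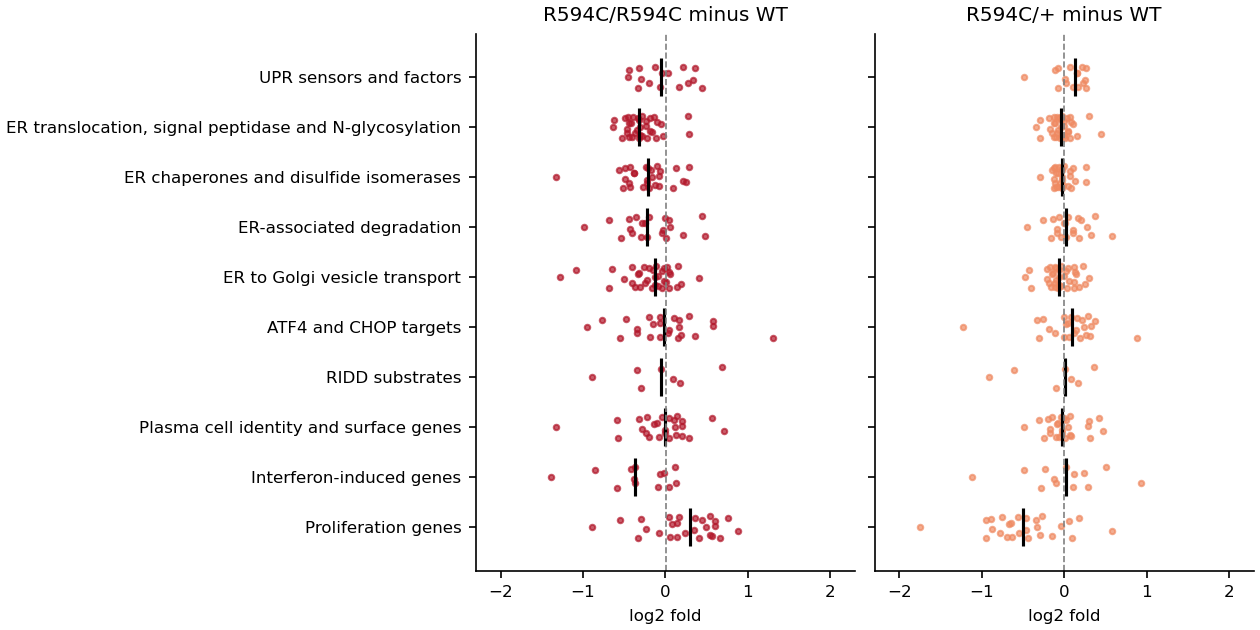
Log2 fold changes of the tested genes of 10 lists in IgM plasma cells, R594C/R594C minus WT on the left and R594C/+ minus WT on the right, which share the WT replicates. Each point is a gene, the black bar is the list's median and the dashed line the median of all genes; the 4 secretory lists have medians of -0.31, -0.21, -0.22 and -0.13 on the left and of -0.04, -0.03, 0.02 and -0.06 on the right.

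These medians kept their sign under all 19 other settings. The translocation and glycosylation median lay between -0.37 and -0.25, with 85.3% to 94.1% of its genes below 0, and the chaperone median between -0.34 and -0.14. The degradation median lay between -0.32 and -0.15 and the transport median between -0.26 and -0.07. Single libraries moved the chaperone and transport medians by more than 1.5 times: without R594C/R594C replicate 1 the chaperone and transport medians were -0.34 and -0.26, without R594C/R594C replicate 2 the chaperone median was -0.14, and without WT replicate 2 the transport median was -0.07.

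The stress and identity lists were split between higher and lower. Of 16 tested sensors and factors of the unfolded protein response, 7 were above and 9 below 0 (median -0.05); Dnajb9, an inhibitor of IRE1 that is also an XBP1 target, had 135 and 162 CPM in R594C/R594C, 227 to 258 in R594C/+ and 161 to 217 in WT (-0.44 ± 0.15 against WT, adjusted p = 0.64). Of 24 tested ATF4 and CHOP targets 12 were above and 12 below 0 (median -0.01). Of 16 substrates of IRE1-dependent decay known from other cells, 7 had enough counts, 3 above and 4 below 0 (median -0.05). The 26 tested plasma cell identity genes gave 12 above and 14 below (median -0.00), among which Fkbp11 passed, and Eaf2 had 396 and 260 CPM in R594C/R594C against 156 to 282 in WT (0.57 ± 0.19, adjusted p = 0.64).

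Among 17 survival and death genes 11 were above 0 (median 0.11). Mcl1, on which plasma cells depend, had 465 and 648 CPM in R594C/R594C against 371 to 495 in WT (0.40 ± 0.14, adjusted p = 0.64), and Bcl2l11, which encodes the death factor BIM, 109 and 119 CPM in R594C/R594C against 23.0 to 93.5 in WT (1.17 ± 0.43, adjusted p = 0.70). S1pr1, the egress receptor, had 21.8 and 26.6 CPM in R594C/R594C against 5.76 to 14.7 in WT (1.04 ± 0.36, adjusted p = 0.64). Of 26 proliferation genes 20 were above 0 (median 0.30) with none past the adjusted threshold. Of 13 tested interferon-induced genes 10 were below 0 (median -0.37), with Isg20 past the threshold, and of 11 mitochondrially encoded genes 8 were above 0 (median 0.18); the median mitochondrial share per cell was 0.671% and 0.626% in R594C/R594C, 0.541% to 0.557% in R594C/+ and 0.465% to 0.575% in WT. The summed plain CPM of 5 T cell markers was 72.0 to 85.9 in R594C/R594C, 22.1 to 50.05 in R594C/+ and 9.43 to 96.4 in WT IgM plasma cells, and Cd8b1 had a log2 fold change of 2.85 ± 0.71 between R594C/R594C and WT (adjusted p = 0.18). The part of T cell RNA in these results was not tested.

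Between R594C/+ and WT IgM plasma cells a globin gene and Gm10076 were higher, and no member of the secretory lists passed. Of the same 6866 genes 2 passed (0.0291%), and 317 (4.62%) had an unadjusted p under 0.05. Neither of the 2 passed with Xist as a covariate, and neither passed after removal of possible doublets. Hbb-bs rose by a log2 fold change of 1.84 ± 0.29 (adjusted p = 0.011), with the erythroid marker sums given above moving with it. Gm10076, to which no role is given here, had 267, 294, 255 and 267 CPM in R594C/+ against 163, 172, 150 and 191 in WT (0.68 ± 0.11, adjusted p = 0.011), and in follicular B cells it averaged 314 CPM in R594C/+ against 203 in WT on that fit's own scale. The next genes by p did not pass. Lpp, an adhesion protein gene, had a log2 fold change of -1.19 ± 0.26 (adjusted p = 0.23), and Ifitm3, an antiviral membrane protein gene, 0.83 ± 0.19 (adjusted p = 0.30). Ighv8-8 had 81 UMIs in R594C/+ against 1 in WT (adjusted p = 0.23). Those 81 UMIs lay in 1 cell each of R594C/+ replicates 1, 2 and 3 and in 2 cells of R594C/+ replicate 4. R594C/R594C replicate 2 had 7 UMIs of Ighv8-8 in 1 cell. The count was 0 without R594C/+ replicate 1, 2 or 4, 5 without WT replicate 1 or 2 and 4 without either R594C/R594C replicate.

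The 5 genes that fell in R594C/R594C did not pass in R594C/+. Edem2 had a log2 fold change of -0.04 ± 0.12 between R594C/+ and WT, Fkbp11 -0.02 ± 0.15, Arfgap3 -0.14 ± 0.17, Tmed3 -0.20 ± 0.14 and Isg20 -0.10 ± 0.13, with adjusted p between 0.96 and 1.00. The secretory lists had medians near 0, with 22 of 34 translocation and glycosylation genes, 19 of 28 chaperones, 9 of 21 degradation genes and 22 of 35 transport genes below 0, where 50.4% of all genes were. In the proliferation list 22 of 26 genes were below 0 (median -0.50), none past either threshold.

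The direct comparison of R594C/R594C with R594C/+ shares the R594C/R594C replicates with the comparison above, so the 2 are not independent. Of 6866 genes 4 passed (0.0583%): Edem2 (log2 fold change -0.94 ± 0.15, adjusted p = 0.0071), Fkbp11 (-1.30 ± 0.20, adjusted p = 0.0071), Sfn (1.15 ± 0.22, adjusted p = 0.044) and Igkv6-32. Dnajb9 had -0.70 ± 0.15, Mcfd2 -1.39 ± 0.31, Ssr4 -0.58 ± 0.13 and Yipf5, a transport protein gene, -0.76 ± 0.16, each with an adjusted p of 0.11. Of the translocation and glycosylation genes 33 of 34 were below 0 (median -0.28), where 49.1% of all genes were, and 12 had an unadjusted p under 0.05 with a lower value, against 3.77% of all genes. In the same comparison 25 of 26 proliferation genes (median 0.70), 8 of 8 tested T cell genes (median 1.05) and 16 of 24 tested B cell identity genes (median 0.25) were above 0, and the part of other cells' RNA was not tested. The summed proliferation level was 607 and 1737 CPM in R594C/R594C against 631 to 1026 in R594C/+, so the 2 R594C/R594C replicates lay on opposite sides of R594C/+. Slc3a2, the heavy chain of amino acid transporters, had 310 and 420 CPM in R594C/R594C, 625 to 805 in R594C/+ and 427 to 840 in WT, a log2 fold change of -1.03 ± 0.24 against R594C/+ (adjusted p = 0.36). No gene passed without R594C/R594C replicate 1, 3 passed without R594C/R594C replicate 2, of the 4 only Igkv6-32 among them, and 7 passed without WT replicate 2. With Xist as a covariate 1 gene passed, and none of the 4 did.

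The same contrast was set against follicular B cells of the same replicates, in a model with the replicate as a block and a term for the difference of the 2 effects. None of 10050 genes passed (0.0%), and 512 (5.09%) had an unadjusted p under 0.05, with edgeR's quasi-likelihood test. The difference of effects was -0.66 ± 0.22 for Edem2 (adjusted p = 0.65), -1.11 ± 0.38 for Arfgap3 (0.74), -0.84 ± 0.27 for Tmed3 (0.62), -0.83 ± 0.23 for Isg20 (0.55) and -0.71 ± 0.51 for Fkbp11 (0.96), whose follicular level was 1.98 CPM in R594C/R594C and 3.08 in WT on that fit's scale. So a difference of the effect between the cell types was not shown for these genes. The nearest was Malt1, with 1.10 ± 0.20 (adjusted p = 0.062): its follicular means were 487 ± 1.59 CPM in R594C/R594C and 479 ± 55.2 in WT (SD, n = 2 and 4). Saraf, a regulator of calcium entry, had -1.06 ± 0.22 (adjusted p = 0.11), with 67.6 ± 10.2 CPM in R594C/R594C and 110 ± 9.70 in WT IgM plasma cells. Of the translocation and glycosylation genes 30 of 34 had a difference below 0 (median -0.21), where 49.4% of all genes did.

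Surface antibody tags were read from a separate tag library of each capture. Between R594C/R594C and WT IgM plasma cells 22 of 113 tested tags passed (19.5%), 7 of them higher (6.19%) and 15 lower (13.3%), and the median over all tags was -0.26. The 10 isotype control tags, made to bind no antigen of the cells, made up 0.555% and 0.462% of tag UMIs in R594C/R594C, 0.626% to 0.824% in R594C/+ and 0.739% to 1.16% in WT IgM plasma cells, and in follicular B cells 0.334% ± 0.0375 in R594C/R594C, 0.459% ± 0.0243 in R594C/+ and 0.744% ± 0.0188 in WT (SD, n = 2, 4 and 4). Of the 4 isotype controls with enough counts, 2 passed as lower in R594C/R594C, IgG1_Rat_k with -1.48 ± 0.39 (adjusted p = 0.019) and IgG1_Rat_l with -1.97 ± 0.52 (adjusted p = 0.018).

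**Figure D4:**
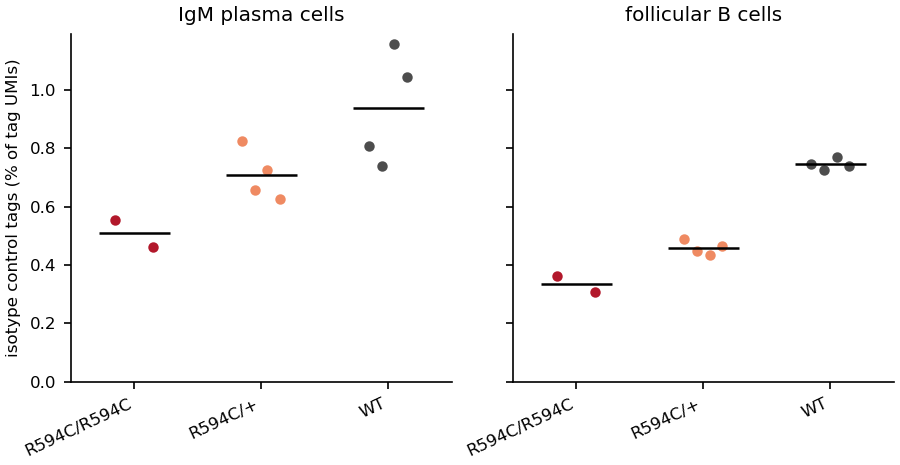
Isotype control tags as % of all tag UMIs in IgM plasma cells (left) and follicular B cells (right), with 1 point per replicate and a line at the genotype mean. In both cell types the R594C/R594C replicates lie lowest, at 0.462% and 0.555% in IgM plasma cells; the WT replicates lie highest in follicular B cells and overlap with R594C/+ in IgM plasma cells.

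The 15 lower tags were mostly at or near this background. CD200R3 had 1 UMI in R594C/R594C, 32 in R594C/+ and 73 in WT IgM plasma cells, CD137 had 5 in R594C/R594C, 68 in R594C/+ and 111 in WT, and CD152 had 4 in R594C/R594C, 52 in R594C/+ and 75 in WT; in follicular B cells the same tags were also lowest in R594C/R594C. No change of these proteins is read from them. CD138, the plasma cell protein encoded by Sdc1, had 14 UMIs in R594C/R594C, 41 in R594C/+ and 88 in WT (log2 fold change -1.87 ± 0.63 between R594C/R594C and WT, adjusted p = 0.056), with Sdc1 RNA at -0.24 (adjusted p = 0.88). The tag was weak on all cells, with 0.284 UMIs per IgM plasma cell and 0.139 per follicular B cell.

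The 7 higher tags stood well above the isotype level. Fewer passed as higher with stricter Xbp1 and Jchain limits (1), a stricter hashtag rule (2) or removal of possible doublets (4). With no filter on low counts 18 did. CD326, the adhesion protein EpCAM, had 25011 and 37279 tag CPM (TMM-scaled) in R594C/R594C, 22423, 24741, 19363 and 19766 in R594C/+, and 6778, 18411, 12674 and 12849 in WT, a log2 fold change of 1.30 ± 0.32 (adjusted p = 0.014). Both R594C/R594C values lay above all others. On follicular B cells, which had 0.408 CD326 UMIs per cell against 8.09 on IgM plasma cells, it averaged 898 in R594C/R594C and 755 in WT, and the RNA of Epcam in IgM plasma cells had a log2 fold change of 0.20 (adjusted p = 0.92). CD39, an enzyme that breaks down extracellular ATP, had 56410 and 68281 tag CPM in R594C/R594C against 27414 to 45079 in WT (0.75 ± 0.21, adjusted p = 0.022), with Entpd1 RNA at -0.14 (adjusted p = 0.97). On follicular B cells the CD39 tag was also higher, with 979 and 1304 in R594C/R594C against 639 to 935 in WT. Ly6A_Ly6E (1.08), CD24 (0.81), MHC class II (0.61) and CD48 (0.55) passed as well, and each of these 4 was also higher in R594C/R594C than in WT follicular B cells. In IgM plasma cells Cd24a RNA was at 0.42 (edgeR quasi-likelihood test, adjusted p = 0.80) and H2-Ab1 RNA, of MHC class II, at -0.28 (same test, adjusted p = 0.94). Of 11 MHC class II presentation genes 10 were below 0 in RNA (median -0.17), and none passed the adjusted threshold. The IgM tag did not pass (0.32 ± 0.39, adjusted p = 0.60), nor did IgD (0.88 ± 0.40, adjusted p = 0.15) or CD45R (0.85 ± 0.39, adjusted p = 0.15). The part of the staining in these differences cannot be told apart from genotype. Between R594C/+ and WT no tag passed (0.0% of 113), and 25 (22.1%) had an unadjusted p under 0.05, of which 19 (16.8%) were lower.

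IgM plasma cells were then set against class-switched plasma cells of the same replicates. Of the class-switched cells 75 had Igha as highest heavy chain, 19 Ighg1, 85 Ighg2b, 84 Ighg2c and 86 Ighg3, in shares that differed between replicates. WT replicate 3 and R594C/R594C replicate 1 held 10 class-switched cells each. With the replicate as a block and all immunoglobulin genes left untested, 177 of 6617 genes passed (2.67%), 112 higher (1.69%) and 65 lower (0.982%) in IgM cells. Of the lists, 8 of 23 ATF4 and CHOP targets passed as higher, and 4 of 18 homing receptors and 2 of 26 proliferation genes passed as lower. Values are TMM-scaled CPM over 10 replicates of both classes.

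Cox6a2, a tissue-specific subunit of cytochrome oxidase, ranged over 7.89 to 56.1 CPM in IgM cells (median 29.1) against 0 to 4.67 in class-switched cells (median 0), and was higher in 10 of 10 replicates (log2 fold change 4.13 ± 0.40, adjusted p = 1.9e-06). The classes did not overlap. Slc3a2 ranged over 320 to 872 CPM in IgM cells (median 638) against 145 to 286 in class-switched cells (median 203), again without overlap (1.62 ± 0.17, adjusted p = 0.00022). Of 23 tested ATF4 and CHOP targets 21 were above 0, with a median of 0.51 against 0.00 for all genes, and 8 passed as higher. Asns, asparagine synthetase, had medians of 47.9 CPM in IgM cells against 18.4 in class-switched cells (1.25 ± 0.17, adjusted p = 2.1e-05), Phgdh, the entry enzyme of serine synthesis, 180 CPM in IgM cells against 122 in class-switched cells (0.54 ± 0.09, adjusted p = 0.00055), and Mthfd2, of mitochondrial folate metabolism, 38.4 CPM in IgM cells against 19.3 in class-switched cells (0.94 ± 0.17, adjusted p = 0.00087). The stress factors Atf5 (1.32), Ddit3 (0.84), Cebpb (0.62) and Ppp1r15a (0.45) passed as higher too.

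Among plasma cell and signalling genes, Tnfrsf17 ranged over 98.0 to 176 CPM in IgM cells (median 158) against 19.6 to 85.9 in class-switched cells (median 68.4) and was higher in 10 of 10 replicates (1.31 ± 0.20, adjusted p = 0.0033). Cd83, an activation marker, had medians of 137 CPM in IgM cells against 64.0 in class-switched cells (1.14 ± 0.11, adjusted p = 1.4e-07), Cd200, an inhibitory ligand, 13.3 CPM in IgM cells against 3.40 in class-switched cells (1.68 ± 0.32, adjusted p = 0.0017), and Bcl2, the survival factor, 64.8 CPM in IgM cells against 32.3 in class-switched cells (0.97 ± 0.20, adjusted p = 0.013). Pou2af1, a coactivator of immunoglobulin genes (0.51), Lag3, an inhibitory receptor (1.26), and Cacna1s (0.76) also passed. Ggh, a folate hydrolase, had medians of 51.9 CPM in IgM cells against 11.0 in class-switched cells (2.27 ± 0.37, adjusted p = 0.0077). Dgkg, a lipid kinase (1.80), Shisa8 (1.87), Phf11b (1.60) and Ifitm1 (2.92) completed the 8 largest increases, and Ifitm1 rested on a few replicates, with a median of 1.38 and a highest value of 47.8.

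The secretory lists were split between higher and lower: 19 of 34 translocation and glycosylation genes and 13 of 28 chaperones were above 0, where 49.6% of all genes were below 0. Single members passed in both directions. Txndc5, a disulfide isomerase, ranged over 954 to 1743 CPM in IgM cells (median 1311) against 457 to 890 in class-switched cells (median 609; 1.09 ± 0.10, adjusted p = 1.4e-06), whereas Txndc11, another thioredoxin-like protein of the ER, had medians of 204 in IgM cells against 270 in class-switched cells (-0.49 ± 0.10, adjusted p = 0.0020). Stt3b, a catalytic subunit of the oligosaccharyltransferase (0.77 ± 0.13, adjusted p = 0.0003), and Sel1l, of the degradation complex (0.50 ± 0.13, adjusted p = 0.027), were higher, and Eif2ak3, which encodes the sensor PERK, was lower (-0.63 ± 0.17, adjusted p = 0.029). Ern1 had medians of 26.0 CPM in IgM cells against 16.6 in class-switched cells and did not pass (0.59 ± 0.19, adjusted p = 0.095).

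Of 18 tested homing receptors 14 were below 0 in IgM cells (median -0.22) and 4 passed as lower. Cxcr3, the receptor that guides cells to inflamed tissue, ranged over 2.67 to 12.8 CPM in IgM cells (median 7.12) against 11.0 to 39.96 in class-switched cells (median 25.2), lower in 10 of 10 replicates (-1.73 ± 0.23, adjusted p = 2.1e-05). Ccr9 and Ccr10, receptors for gut and mucosal homing, had medians of 0.399 CPM in IgM cells against 3.44 in class-switched cells (-2.39 ± 0.63, adjusted p = 0.034) and 5.57 CPM in IgM cells against 15.7 in class-switched cells (-1.59 ± 0.36, adjusted p = 0.017), and the integrin chain Itgb7 12.8 CPM in IgM cells against 35.2 in class-switched cells (-1.06 ± 0.25, adjusted p = 0.018). In WT replicate 4 Itgb7 went the other way, with 38.1 CPM in IgM cells against 18.8 in class-switched cells. The part of the class make-up of the switched cells in these values was not tested. Slpi, a secreted protease inhibitor, had medians of 1524 CPM in IgM cells against 4975 in class-switched cells (-1.80 ± 0.33, adjusted p = 0.021). All 26 proliferation genes were below 0 (median -0.52), with Mcm2 (-1.07) and Rrm2 (-1.15) past the threshold and Mki67 short of it (-0.50 ± 0.14, adjusted p = 0.069). The other large decreases were Hemgn, Gm8879, Irak1bp1 and Il2rb; Hemgn is an erythroid gene, and the erythroid list had 5 of 5 tested genes below 0 (median -1.66).

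The surface tags were compared in the same way. Of 102 tested tags 16 passed (15.7%), 6 higher (5.88%) and 10 lower (9.8%). The IgM tag, whose RNA chose the cells, is counted among them and is given as a description: it ranged over 1389 to 2889 tag CPM on IgM cells (median 1893) against 101 to 969 on class-switched cells (median 383), without overlap. CD200 had medians of 3696 tag CPM in IgM cells against 1598 in class-switched cells and was higher in 10 of 10 replicates (1.21 ± 0.20, adjusted p = 0.00053), in the direction of its RNA. CD183, the protein of Cxcr3, had medians of 2242 in IgM cells against 4720 in class-switched cells and was lower in 10 of 10 replicates (-1.24 ± 0.24, adjusted p = 0.0019), again in the direction of its RNA. CD69, a retention marker (0.98), CD79b, of the B cell receptor (0.94), CD29 (0.57) and CD1d (0.50) were higher, and the tag named Integrin (-1.69), CD43 (-0.74), CD80 (-0.67), CD274 (-0.67), Ly6C (-0.62), CD326 (-0.56), CD11a (-0.55), CD2 (-0.55) and CD48 (-0.50) were lower. CD138 (-0.04 ± 0.21) and IgD (0.13 ± 0.18) did not pass. After removal of possible doublets IgD turned to -0.67 and passed as lower.

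**Figure D5:**
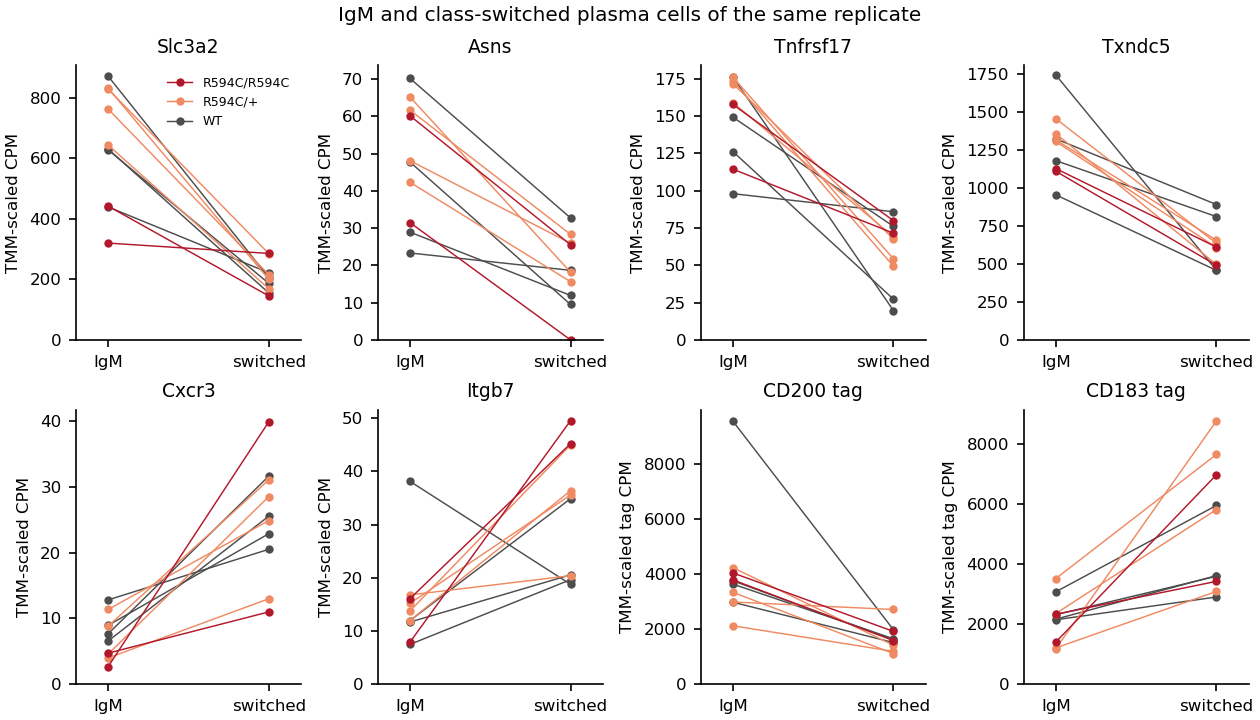
TMM-scaled CPM of genes and tags in IgM and class-switched plasma cells of the same replicate, with 1 line per replicate in the colour of its genotype. Slc3a2, Tnfrsf17 and Txndc5 are higher, and Cxcr3 lower, on the IgM side in 10 of 10 replicates.

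Without R594C/+ replicate 2 the count of genes between the classes was 117, the lowest of the 10 replicates left out, and with stricter Xbp1 and Jchain limits it was 266. The ATF4 and CHOP median lay between 0.45 and 0.60 and the proliferation median between -0.90 and -0.39 over 18 other settings.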

How the data were processed

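The authors deposited raw UMI counts per gene, antibody tag and hashtag for each cell barcode of 3 captures, made with Cell Ranger 5.0.0 per the file headers; Cell Ranger, STAR, Seurat 3.1.4 and build mm10 are named in the submitters' processing notes. The counts were 3′ counts of 55385 genes, 191 antibody tags and hashtags, and each genotype has an RNA, a tag and a hashtag library, 9 samples in all. Cells were assigned to replicates by hashtag, and counts of IgM plasma cells, class-switched plasma cells and follicular B cells were summed per replicate. The sums were tested with edgeR 4.0.16 in R 4.3.3 (quasi-likelihood test, robust, TMM scaling, its default low-count filter, Benjamini-Hochberg adjustment over all tested features, threshold 0.05). All 10 replicates entered each fit; the 8 genes of the rule stayed in the library sizes and were not tested, and the class comparison left the 395 immunoglobulin genes untested and used the replicate as a block, as did the comparison with follicular B cells. Tags needed a mean of 10 UMIs. Fold changes are R594C/R594C or R594C/+ over WT, R594C/R594C over R594C/+, and IgM over class-switched. No doublet caller was run; removal of cells with at least 2 UMIs over 21 markers of other cell types is an alternative. Shares were tested by exact permutation with Python 3.11.15 and scipy 1.17.1.

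The members and the gene lists were chosen with earlier results of these data known. The genes named were Ern1, Xbp1, Jchain, Ighm and Prdm1; for each comparison the 8 highest and 8 lowest fold changes past the threshold, with the 5 lowest p where fewer than 5 passed; for each list the 4 most abundant members and any past the threshold; for tags the 6 highest and 6 lowest past the threshold with CD138, IgM, IgD, CD45R and MHC class II; and for the comparison with follicular B cells the 5 highest and 5 lowest. Other list members named with values (such as Calr, Tram1, Dad1, Krtcap2, Spcs3, Rpn1, Ddost, Fkbp2, Dnajc3, Erp44, Ubxn4, Man1b1, Derl1, Mcfd2, Creld2, Eaf2, Bcl2l11, S1pr1, Cd8b1 and, between the classes, Lag3, CD11a, CD2 and CD48) were chosen after their values were seen. Of the features the rule names, 1 is not reported here. Promoter sequences are from RefSeq (GRCm38.p6). The edgeR scripts were tested on simulated data.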

Additional observations from a re-analysis of the deposited data

Results flagged for a closer look

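Among the groups of 4 replicates, 270 were tested over the genes, tags and shares named, and in 19 (7.04%) the highest or lowest replicate stood apart from the others by more than Dixon's 95% critical value, where chance gives about 5%. The share of IgM plasma cells in R594C/+ replicate 2 was among them, at 2.94% of hashtagged cells.

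Of the genes that passed between R594C/R594C and WT, Sfn stood apart at 39.7 CPM in R594C/+ replicate 1, Isg20 at 193 CPM in WT replicate 3, Arfgap3 at 52.6 CPM in WT replicate 4 and Igkv6-32 at 0.579 CPM in R594C/+ replicate 2, the level of 1 UMI. Among other secretory and stress genes, Dnajb9 stood low at 161 CPM in WT replicate 2, Stt3b low at 64.6 CPM in WT replicate 2, Txndc11 low at 166 CPM in WT replicate 4 and Phgdh high at 249 CPM in WT replicate 3. Bst2 stood high at 125 CPM in R594C/+ replicate 3, and Ighv8-8 at 1.13 CPM in WT replicate 2 with the other WT replicates at 0.

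For the class comparison, Ifitm1 stood high at 45.9 CPM in WT replicate 1 and at 21.9 CPM in R594C/+ replicate 3, Itgb7 high at 36.3 CPM in WT replicate 4 and Ccr9 high at 0.820 CPM in WT replicate 1. Among the tags, MHC class II stood low at 72594 tag CPM in R594C/+ replicate 1, and in WT replicate 2 CD200 stood high at 10182 and CD29 at 39013 tag CPM, while CD183 stood high at 3239 tag CPM in WT replicate 4.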

How the results depend on the processing

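Between R594C/R594C and WT, where 9 genes passed, 14 did with stricter Xbp1 and Jchain limits (8 of the 9 among them), 0 after removal of possible doublets, 36 with no filter on low counts, 7 with Xist as a covariate (5 of the 9 among them) and 2 to 15 with a replicate left out; DESeq2 called 12, with 3998 adjusted p left as NA. Between R594C/+ and WT 1 passed without possible doublets (none of the 2), 29 with no filter, 1 with Xist as a covariate (none of the 2) and 0 to 5 with a replicate left out. Between R594C/R594C and R594C/+ the counts were 14 with stricter limits, 0 without possible doublets, 8 with DESeq2, 46 with no filter, 1 with the Xist covariate (none of the 4) and 0 to 7 with a replicate left out. Tags between R594C/R594C and WT numbered 9 with stricter limits, 13 with a stricter hashtag rule, 11 without possible doublets, 56 with no filter and 13 to 24 with a replicate left out, and tags between R594C/+ and WT 2 with no filter, 9 with the Xist covariate and 0 to 3 with a replicate left out. Between the classes 266 genes passed with stricter limits, 280 with no filter and 117 to 207 with a replicate left out, and 25 tags without possible doublets and 13 to 18 with a replicate left out. The difference from follicular B cells gave 3 genes with stricter limits, 1 without possible doublets, 1 with captures thinned, 17 with no filter, 2 with immunoglobulin genes left out and 0 to 5 with a replicate left out. The correlations of the shares with copy number lay between -0.354 and 0.136 and between -0.506 and 0.335 with a replicate left out. The cause was not tested.

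Hashtag numbers did not pair replicates: over 8 same-numbered pairs no correlation of deviations passed 0.1, and 2 of 10 replicates correlated best with their own number. With the number as a replicate block, 0 genes passed between R594C/R594C and WT (Edem2 at an adjusted p of 0.096) and 8 between R594C/+ and WT. Under stricter limits, a stricter hashtag rule or doublet removal, replicates with under 10 class-switched cells left the class comparison. Signs turned, among named values that did not pass above, for Hspa5 (-0.042), Creld2 (-0.18) and Derl3 (-0.23) with stricter limits between R594C/R594C and WT. With a replicate left out, Prdm1 lay between -0.0021 (without R594C/R594C replicate 1) and 0.42 in that comparison. For R594C/+ against WT the ranges with a replicate left out were -0.31 to 0.096 for Prdm1, -0.011 to 0.69 for Ern1, -0.13 to 0.044 for Edem2, -0.12 to 0.11 for Fkbp11 and -0.11 to 0.086 for Ssr4; WT replicate 3 left out turned the last 3, WT replicate 2 Prdm1 and WT replicate 4 Ern1. In the same comparison Edem2, Fkbp11 and Ssr4 were 0.00049, 0.016 and 0.0049 with no filter, and Fkbp11 and Ssr4 were 0.071 and 0.16 with the Xist covariate. Of the tags, IgD was -0.24 between R594C/R594C and WT without possible doublets. Between the classes IgD was -0.036 with a stricter hashtag rule. Without possible doublets it was -0.67 and passed (edgeR quasi-likelihood test, adjusted p = 0.012). CD138 was 0.015 with a stricter hashtag rule, 0.0060 with captures thinned, 0.061 with no filter and -0.17 to 0.16 with a replicate left out. With 742021 to 1939533 UMIs per replicate and 2 R594C/R594C replicates, small changes of low genes were not detectable at this depth.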
